A study of Mus musculus with 2 samples.

Results

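The 40 genes described here are neuronal, synaptic and secretory granule genes known to be bound by the repressor REST, among them the granins, synaptic vesicle proteins and neurofilaments. They were chosen by name from that knowledge, with earlier results of these data known, and all 40 were found among the 17840 genes of the deposited tables. The question is whether they were higher where Rest itself was lower. RNA was sequenced from mouse intestinal crypt cells gated for the stem cell marker Lgr5, with 1 library per genotype. The Srcap KO library came from mice of the genotype Srcapflox/flox; Lgr5-Cre+ that were given tamoxifen, in which Cre from the Lgr5 gene deletes Srcap, the ATPase of a complex that places the histone variant H2A.Z. The Srcap WT library came from Srcap+/+; Lgr5-Cre+ mice, and the labels do not make clear whether these also had tamoxifen. Both carried the Cre and an Lgr5 reporter with green fluorescent protein, by whose intensity the cells were sorted from dissociated crypts without culture. The sources used here do not give age, sex, the number of mice per library or the floxed exons.

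REST, the RE1-silencing transcription factor, binds a bipartite DNA motif called RE1 near genes of neurons and endocrine cells. It recruits SIN3 complexes with one end of the protein and the CoREST complex, with histone deacetylases and the demethylase LSD1, with the other. Outside the nervous system it is known for holding such genes down. In the intestine the main epithelial users of these genes are enteroendocrine cells, which store peptide hormones in dense-core granules built from granins and processed by prohormone convertases. Neurons and glia of the gut wall use others of the set.

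The motif itself could be read with at most 3 mismatches in the sequence of 7 of the 40 genes, and these sites are shown as examples. A match of letters does not show that REST was bound in these cells, and binding was not measured here. The search used a left part, TTCAGCACC, and a right part, GGACAGCGC, with 2 free letters between them, on both strands. In the lines below the letters equal to the motif are in capitals, the free and differing letters are in lower case, and each site is written along the motif, 5' to 3'. Promoter windows of 300 bases are those of RefSeq on GRCm38.p6, and transcripts are those of GENCODE M21, on the same assembly as mm10.
Gria2: TTtAGCACCgcGGACAGCGC
Celsr3: TTCAGCACCgtGGgCAGCaC
Vgf: TTCAGCACgctGGACAGCGC
Grin1: TTCAGCACCtcGGACAGCaC
Bdnf: TTCAGCACCttGGACAGaGC
Syp: TcCAGCACCgtGGACAGaGC

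The Gria2 site lies in the promoter window at chr3:80802989-80803008 and has 1 mismatch in the 18 letters compared. Gria2 encodes an AMPA receptor subunit of excitatory synapses. The Celsr3 site, with 2 mismatches, lies in its promoter window at chr9:108825918-108825937, and Celsr3 encodes an adhesion receptor that guides axons. The other sites are transcribed. Those of Vgf (exon 4 of its transcript, chr5:137030275-137030294), Grin1 (exon 1, chr2:25319015-25319034) and Bdnf (exon 1, chr2:109676045-109676064) lie in 5' UTRs and have 1 mismatch each. The site of Syp (chrX:7638737-7638756) has 2 mismatches and lies in exon 1 of a GENCODE transcript, in a part annotated as coding. Syt4 also held a site with 1 mismatch in the 5' UTR in exon 1, which is named only.

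For Gria2 and Celsr3 the whole window is given to show the promoter around the site, along the strand of the gene, with the site in capitals. The Gria2 window is chr3:80802786-80803085 on the minus strand, where the site reads against the gene. The Celsr3 window is chr9:108825795-108826094 on the plus strand.
Gria2 window: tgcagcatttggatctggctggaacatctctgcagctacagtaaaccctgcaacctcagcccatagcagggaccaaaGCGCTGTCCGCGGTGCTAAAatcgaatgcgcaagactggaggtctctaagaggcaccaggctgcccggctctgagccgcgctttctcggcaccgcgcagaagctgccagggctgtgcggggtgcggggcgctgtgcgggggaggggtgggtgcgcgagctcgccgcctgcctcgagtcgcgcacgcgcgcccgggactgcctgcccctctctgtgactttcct
Celsr3 window: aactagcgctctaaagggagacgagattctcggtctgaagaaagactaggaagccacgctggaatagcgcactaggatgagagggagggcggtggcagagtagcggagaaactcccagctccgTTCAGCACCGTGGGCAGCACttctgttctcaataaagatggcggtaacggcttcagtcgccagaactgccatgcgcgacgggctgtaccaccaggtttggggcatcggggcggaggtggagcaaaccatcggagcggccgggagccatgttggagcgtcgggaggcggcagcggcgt

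With at most 4 mismatches, 2 of the 29 members that have a promoter window held a match (6.90%), against 152 of 27025 genes in all (0.562%). In transcripts, 5 of 40 members had a match with at most 3 mismatches (12.5%), against 223 of 21877 protein-coding genes (1.02%). Because the members were chosen as known REST-bound genes, a larger share among them may come with the choice and is no separate support. Transcripts were not matched for length, and longer ones have more places for a match. With 4 mismatches the shares were 30.0% and 6.45%, so that a match at that limit separates the set less. No match means only that these letters are not in the window or transcript, since many RE1 sites are known to lie in introns or farther upstream.

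**Figure D1:**
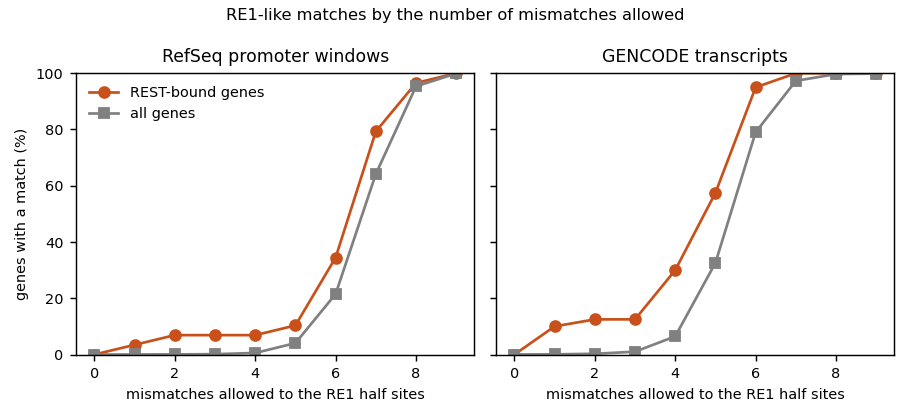
Share of genes (%, vertical axis) whose promoter window (left) or transcript (right) holds an RE1-like match, against the number of mismatches allowed in the 18 letters compared; circles are the REST-bound genes and squares all genes. At 2 mismatches the REST-bound genes stand at 6.90% and 12.5%, against 0.0444% and 0.270% of all genes.

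Levels are given as FPKM, fragment counts scaled to transcript length and to library depth, which allows genes to be compared per length. A difference is the log2 ratio of Srcap KO to Srcap WT after 1 FPKM was added to both values, which understates the change of low genes. Printed folds and percentages are ratios without this addition. With 1 library per genotype there is no replicate error and no test, so each difference is one between these libraries. The steps between low values imply about 17100000 reads on genes in the Srcap KO library and 16900000 in the Srcap WT library. From these, approximate 95% counting intervals of the ratio (exact Clopper-Pearson) were computed for each member, and they cover counting error only. In bulk samples, fewer cells of a type and less RNA per cell cannot be told apart.

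Several facts of the libraries touch every result here. Srcap was at 11.3 FPKM in the Srcap KO library and 20.4 FPKM in the Srcap WT library. Among 9 Lgr5 stem cell markers all were lower in the Srcap KO library, with sums of 762 and 1765 FPKM, and Lgr5 itself was at 2.17 and 5.90 FPKM. Paneth cell transcripts were abundant in both libraries, with sums of 19083 FPKM in Srcap KO and 33736 FPKM in Srcap WT over 6 genes, so the samples were not stem cells alone. Stromal and mesothelial markers summed to 232 FPKM in Srcap KO and 22.8 FPKM in Srcap WT, myeloid markers to 397 and 162 FPKM, and enterocyte markers to 720 and 391 FPKM. The part of these shifts in the results below was not tested.

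Rest was at 1.41 FPKM in the Srcap KO library and 27.8 FPKM in the Srcap WT library, 19.7-fold lower, with a log2 ratio of -3.58. Its partners differed far less. Of 19 corepressor and regulator genes, 13 had a negative and 6 a positive log2 ratio, and the median was -0.05. With 1 FPKM added, 0 of them reached 1.5-fold in either direction. Of all genes at 1 FPKM or above, 8.05% were higher and 1.59% lower by that limit, and 46.4% had the lower value in Srcap KO. The largest difference among the 19 was that of Rcor2, a CoREST family member, at 1.52 FPKM in Srcap KO and 2.67 FPKM in Srcap WT. Sin3a, the scaffold of the SIN3 complex, was at 11.1 and 12.8 FPKM. The repressor gene was thus many-fold lower in Srcap KO, and the genes of its cofactors differed far less.

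As a set, the REST-bound genes were not higher in the library with little Rest. With 1 FPKM added to both values, 0 of the 40 reached 2-fold higher in Srcap KO and 0 reached 2-fold lower. Of all 11784 genes whose larger value was 1 FPKM or above, 2.61% passed 2-fold upward and 0.416% downward. Only the 24 members at that level could be called. At such shares, 0 calls among 24 genes do not set the members apart from all genes. Without that addition, 4 members (Pcsk1n, Snap25, Stmn3 and Tubb4a) were 2-fold lower, against 1.06% of all genes, and 0 were 2-fold higher. With the addition and a limit of 1.5-fold, 0 members were higher and 8 were lower, where 8.05% of all genes were higher and 1.59% lower. Of the 24 members that reached 1 FPKM in either library, 20 had the lower value in Srcap KO, against 46.4% of all genes that reached it; after both libraries were scaled to the same sum, Stx1a and Kcnh2 among these 20 had the opposite sign. The other 16 members stayed under 1 FPKM in both libraries. The median log2 ratio of the 22 members that averaged 1 FPKM or above was -0.50, and over all 11443 such genes it was 0.02. Because most members are weakly expressed, the 5395 genes with a mean from 1 to 10 FPKM are a nearer yardstick, and their median was 0.06, with 41.0% negative. These shares describe the list in this pair of libraries.

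**Figure D2:**
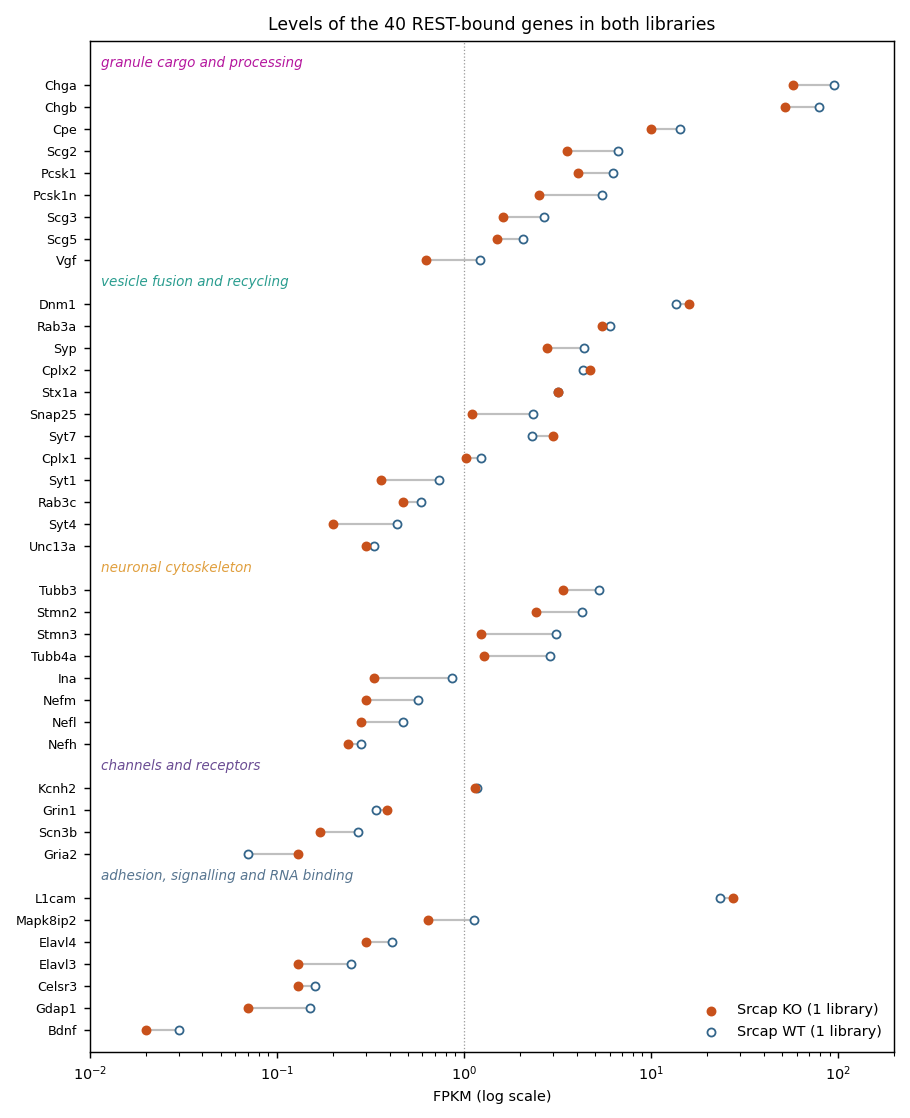
FPKM of each of the 40 genes (log axis), sorted by Srcap WT level within role groups; filled circles are the Srcap KO library, open circles the Srcap WT library, and the dotted line marks 1 FPKM. All granule and cytoskeleton genes have the lower value in Srcap KO, while L1cam, Dnm1, Syt7, Cplx2, Grin1 and Gria2 have the higher one.

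Counting error alone leaves many of the single differences readable. The interval of the ratio lay below 1 for 19 members and above 1 for 2, and it held 1 for 19. Over 16375 genes with a transcript length and at least 1 read, 13.1% of intervals lay below 1 and 22.0% above it. The intervals rest on read numbers estimated with GENCODE lengths and say nothing about the spread between mice.

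**Figure D3:**
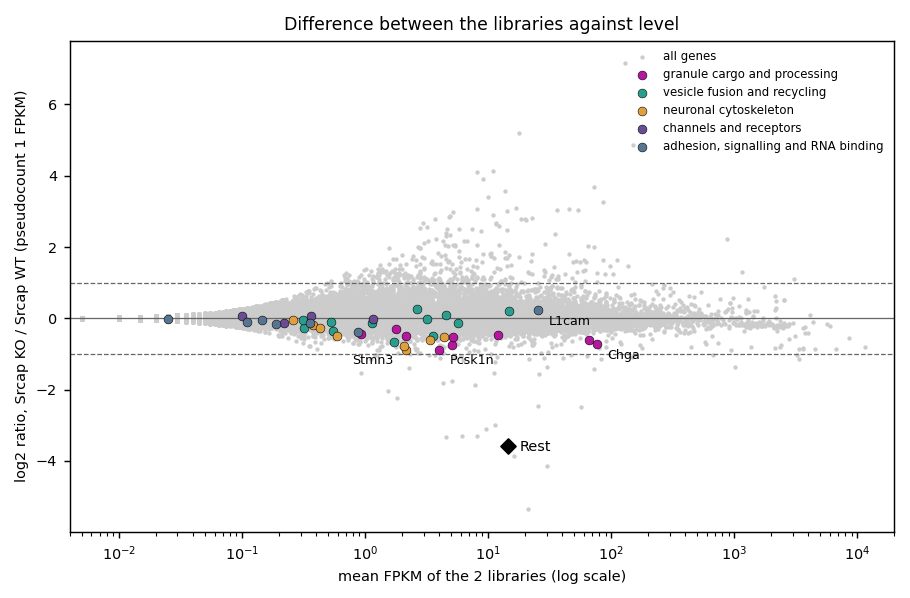
Log2 ratio of Srcap KO to Srcap WT (pseudocount 1 FPKM) against the mean FPKM (log axis) for all genes (grey) and the REST-bound genes coloured by role; dashed lines mark 2-fold and the diamond is Rest. The REST-bound genes lie between -0.88 and 0.27, inside the 2-fold lines, while Rest lies at -3.58.

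The 9 genes of granule cargo and processing were all lower in Srcap KO, with log2 ratios from -0.88 to -0.30 and a median of -0.56 over the 8 with a mean of at least 1 FPKM. Their FPKM summed to 133 in Srcap KO and 214 in Srcap WT. The granins, acidic proteins that condense in dense-core granules, led the set in level. Chga (Entrez 12652, chr12:102554941-102565027), which encodes chromogranin A, was at 57.6 FPKM in Srcap KO and 95.6 FPKM in Srcap WT, or 60.2% of the Srcap WT level (counting interval of the ratio 0.568 to 0.638). Chgb, for chromogranin B, was at 51.8 and 79.5 FPKM, 1.54-fold lower. Chga and Chgb together made up most of the summed level of the whole set, and the other 38 genes still summed to 103 FPKM in Srcap KO against 123 FPKM in Srcap WT.

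The secretogranins were far less abundant and lower as well. Scg2, a granin that is cut into secretoneurin, was at 3.54 FPKM in Srcap KO and 6.66 FPKM in Srcap WT. Scg3, which helps sort chromogranin A into granules, was at 1.62 and 2.67 FPKM. Scg5, the chaperone 7B2 of the convertase PC2, was at 1.51 and 2.08 FPKM, a difference whose interval (0.435 to 1.16) held 1. Vgf, a neuropeptide precursor with the RE1 site shown above, was at 0.63 FPKM in Srcap KO and 1.22 FPKM in Srcap WT, or about 26 and 50 reads. Its interval lay below 1 (0.308 to 0.844). Of the 7 members with a site of at most 3 mismatches, 5 were lower and 2 higher in Srcap KO. The intervals of Celsr3, Gria2, Grin1 and Bdnf among them held 1. A link between site and direction was not tested.

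Enzymes of prohormone processing had the same sign. Pcsk1, the convertase PC1/3, was at 4.09 FPKM in Srcap KO and 6.28 FPKM in Srcap WT, and Cpe, the carboxypeptidase that trims the cut peptides, at 10.02 and 14.3 FPKM. The largest difference of the group was in Pcsk1n, whose product proSAAS inhibits PC1/3. It was at 2.52 FPKM in Srcap KO and 5.50 FPKM in Srcap WT, 2.18-fold lower (interval 0.354 to 0.586), with a log2 ratio of -0.88. Convertase and inhibitor were thus both lower, at 65.1% and 45.8% of their Srcap WT levels.

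The 12 genes of vesicle fusion and recycling were mixed, with 9 lower and 3 higher in Srcap KO and a median of -0.06 (0.01 after scaling to the same sum) over the 8 with a mean of at least 1 FPKM. Syp, for the vesicle protein synaptophysin and with an RE1 site, was at 2.79 FPKM in Srcap KO and 4.39 FPKM in Srcap WT. Snap25, a membrane SNARE of neurons and endocrine cells, was at 1.11 and 2.35 FPKM, 2.12-fold lower (interval 0.30 to 0.753). Stx1a, which pairs with SNAP25 in the fusion complex, was nearly equal at 3.17 and 3.19 FPKM. The interval of Stx1a (0.707 to 1.39) overlapped slightly with that of Snap25, and whether the 2 ratios differ was not tested.

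A few genes of this group and of adhesion were higher in Srcap KO. Dnm1, the dynamin that pinches off vesicles, was at 15.9 FPKM in Srcap KO and 13.6 FPKM in Srcap WT (interval 1.06 to 1.29). Cplx2, a complexin that clamps SNARE complexes, was at 4.71 and 4.34 FPKM, and Syt7, a calcium sensor of slow release, at 2.98 and 2.30 FPKM. The intervals of both held 1. L1cam, a cell adhesion molecule of axons, was the most abundant member outside the granins, at 27.6 FPKM in Srcap KO and 23.5 FPKM in Srcap WT (interval 1.07 to 1.28). These 4 values were at most 1.30-fold higher.

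Other genes of vesicle release were little different or weakly expressed. Rab3a, a GTPase of secretory vesicles, was at 5.46 FPKM in Srcap KO and 6.03 FPKM in Srcap WT, and Cplx1 at 1.03 and 1.24 FPKM. Below 1 FPKM, the calcium sensors Syt1 and Syt4 were at 0.36 and 0.20 FPKM in Srcap KO and 0.74 and 0.44 FPKM in Srcap WT. These were 2.06-fold and 2.20-fold lower, on about 29 and 13 reads in Srcap KO against 60 and 29 reads in Srcap WT. Rab3c was at 0.47 and 0.59 FPKM and Unc13a, a priming factor, at 0.30 and 0.33 FPKM, with intervals that held 1.

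All 8 neuronal cytoskeleton genes were lower in Srcap KO, and their FPKM summed to 9.50 in Srcap KO and 17.7 in Srcap WT, 53.6% of the Srcap WT sum. Stmn3, a stathmin that destabilises microtubules, was at 1.23 FPKM in Srcap KO and 3.10 FPKM in Srcap WT, 2.52-fold lower (interval 0.236 to 0.647). Its relative Stmn2 was at 2.44 and 4.27 FPKM. The tubulins Tubb3 and Tubb4a were at 3.40 and 1.28 FPKM in Srcap KO and at 5.30 and 2.87 FPKM in Srcap WT. The median log2 ratio of these 4 genes was -0.69, beside -0.56 for the granule genes. The order of the 2 groups turned with a pseudocount of 5 FPKM, to -0.32 and -0.40, and over all listed members, to -0.50 and -0.52.

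Neurofilament genes were present only at low levels. Ina, for alpha-internexin, was at 0.33 FPKM in Srcap KO and 0.86 FPKM in Srcap WT, 2.61-fold lower, on about 18 and 47 reads. Nefm was at 0.30 and 0.57 FPKM, Nefl at 0.28 and 0.47 FPKM, and Nefh at 0.24 and 0.28 FPKM. The intervals of Nefl and Nefh held 1.

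Channels and receptors of neurons were weakly expressed. Kcnh2, a potassium channel, was the only member of the group above 1 FPKM, at 1.14 FPKM in Srcap KO and 1.18 FPKM in Srcap WT. Grin1, an NMDA receptor subunit with an RE1 site, was at 0.39 and 0.34 FPKM. Gria2 was at 0.13 FPKM in Srcap KO and 0.07 FPKM in Srcap WT, which is about 16 and 9 reads and an interval of the ratio from 0.734 to 4.53. Gria2, whose promoter window holds the site printed above, is thus a member with a higher value in Srcap KO, but by a difference within counting error. Scn3b, a sodium channel subunit, was at 0.17 and 0.27 FPKM, again with an interval that held 1.

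Genes of signalling and RNA binding were mostly under 1 FPKM. Mapk8ip2, a scaffold of JNK signalling, was at 0.64 FPKM in Srcap KO and 1.13 FPKM in Srcap WT (interval 0.409 to 0.789). The neuronal RNA-binding genes Elavl3 and Elavl4 were at 0.13 and 0.30 FPKM in Srcap KO and at 0.25 and 0.41 FPKM in Srcap WT. Gdap1, a mitochondrial protein of peripheral neurons, was at 0.07 and 0.15 FPKM, and Celsr3 at 0.13 and 0.16 FPKM. Bdnf, a neurotrophin and a classic RE1 gene, was at 0.02 FPKM in Srcap KO and 0.03 FPKM in Srcap WT, a level of about 1 and 2 reads. No direction can be read from these last values except for Mapk8ip2.

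Genes with and without an RE1-like site were mostly lower in Srcap KO. Of the 7 members with a match of at most 3 mismatches, 5 were lower and 2 higher in Srcap KO, and their FPKM summed to 4.29 in Srcap KO and 6.65 in Srcap WT. Of the 33 without one, 29 were lower and 4 higher, with sums of 208 and 292 FPKM. Only 1 of the 7, Syp, had a mean of at least 1 FPKM, so most of the genes with a readable site were near silent in both libraries. The intervals of Vgf, Syp and Syt4 lay below 1. Those of Celsr3, Gria2, Grin1 and Bdnf held 1, so their direction cannot be read. Of all 104 genes with such a match and a mean of at least 1 FPKM, 52 were lower in Srcap KO. No test between genes with and without a site was run.

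A wider list held 39 other REST target genes of synapses, channels and transmitter synthesis. Of these, 26 were lower, 12 higher and 1 equal in Srcap KO, and 32 stayed under 1 FPKM in both libraries. Among the 7 that reached 1 FPKM, 6 were lower and 1 higher, where 46.4% of all such genes were lower. Of the 7 that reached 1 FPKM, 0 differed 1.5-fold in either direction with 1 FPKM added. Among all genes at that level, 8.05% were higher and 1.59% lower by that limit. The median of the 6 listed targets with a mean of at least 1 FPKM was -0.20. Syn2, a synapsin, was at 0.84 FPKM in Srcap KO and 1.6 FPKM in Srcap WT. Bsn, a scaffold of the presynapse, was at 1.11 and 1.43 FPKM, and Mmp24, a membrane metalloprotease, at 1.11 and 1.42 FPKM. Chrnb2, for a nicotinic receptor subunit, held a site without mismatch in the 5' UTR of exon 1 (chr3:89764455-89764474) and was at 0.59 and 0.70 FPKM. Its site is shown as the exact form of the motif in a target gene.
Chrnb2: TTCAGCACCacGGACAGCGC

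Hormones of the endocrine cells that use these genes were lower as a sum but mixed as single genes. The hormone list held 12 genes that are no members, among them Tph1, which encodes an enzyme of serotonin synthesis and no peptide hormone. Of the 12, 9 were lower and 3 higher in Srcap KO, with sums of 284 FPKM in Srcap KO and 424 FPKM in Srcap WT. Of the 10 that reached 1 FPKM, 7 were lower, against 46.4% of all such genes. With 1 FPKM added, 2 were 2-fold lower or more, against 0.416% of all such genes. Gip was at 39.5 and 107 FPKM, Ghrl at 16.5 and 43.8 FPKM, Tac1 at 16.5 and 28.7 FPKM, and Cck at 37.5 and 59.3 FPKM. On the other side Pyy was at 15.2 FPKM in Srcap KO and 10.4 FPKM in Srcap WT (interval 1.12 to 1.91), while Sct at 37.2 and 36.1 FPKM, Nts at 7.32 and 6.51 FPKM and Sst at 43.95 and 47.8 FPKM had intervals that held 1. These 4 were named after their values were seen. The hormone sum in Srcap KO was 67.0% of that in Srcap WT, beside 62.4% for the granule genes and 71.0% for all 40 members. Gip and Ghrl carried much of the lower sum, since the other 10 genes of the list summed to 228 FPKM in Srcap KO and 273 FPKM in Srcap WT. This was 83.5%, with the choice of the 2 genes made after seeing the data. Insl5 was listed at 0 in Srcap KO and at 0.08 FPKM in Srcap WT.

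Transcription factors of the enteroendocrine lineage summed to 20.3 FPKM in Srcap KO and 28.2 FPKM in Srcap WT, with 9 of 13 lower, 3 higher and 1 equal and a median of -0.38. Of the 8 that reached 1 FPKM, 6 were lower, against 46.4% of all such genes. Nkx2-2 was at 2.09 and 3.74 FPKM, Insm1 at 3.31 and 5.36 FPKM, Fev at 2.30 and 3.74 FPKM, and Neurog3, which starts the lineage, at 5.17 and 7.02 FPKM. The levels of hormones, lineage factors and granule genes were thus all lower in Srcap KO as sums. How much of the members' difference goes with enteroendocrine cells was not tested.

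Enteric neuron and glia markers were detected at low levels in both libraries. The 8 neuron markers summed to 15.5 FPKM in Srcap KO and 24.4 FPKM in Srcap WT, with 7 of 8 lower, and the 5 glia markers to 3.02 and 4.74 FPKM, with 5 of 5 lower. Among those that reached 1 FPKM, 5 of 6 neuron markers and 2 of 2 glia markers were lower, against 46.4% of all such genes. Prph, for the intermediate filament peripherin, was at 2.60 and 5.77 FPKM, and Uchl1 at 5.03 and 10.2 FPKM. Most of the difference in the neuron sum lay in Prph and Uchl1. The median log2 ratio of the 5 neuron markers with a mean of at least 1 FPKM was -0.08. The glial factor Sox10 was weak, at 0.42 FPKM in Srcap KO and 0.92 FPKM in Srcap WT. Vip, a neuropeptide, was in contrast at 4.0 and 2.59 FPKM, and Ret, a receptor of enteric neurons, at 1.21 and 1.33 FPKM. None of the 13 neuron and glia markers was listed at 0 in either library, and their part in the values of the neurofilament and synaptic genes was not tested.

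Tuft cells are another rare epithelial type. Of 8 markers 7 were lower in Srcap KO, with sums of 18.8 FPKM in Srcap KO and 19.7 FPKM in Srcap WT and a median of -0.21. Of the 6 that reached 1 FPKM, 5 were lower, against 46.4% of all such genes. Pou2f3, the regulator of the lineage, was at 1.61 and 3.05 FPKM, while Ptgs1 was higher at 5.88 and 2.28 FPKM. Without Ptgs1, the other 7 summed to 12.9 FPKM in Srcap KO and 17.4 FPKM in Srcap WT, or 74.0%. Leaving it out was a choice made after seeing the data. Dclk1 was at 1.57 FPKM in Srcap KO and 1.78 FPKM in Srcap WT, and Rgs13 at 2.54 and 2.71 FPKM. The counting intervals of Dclk1, Rgs13, Trpm5, Gfi1b and Il25 included equal levels, so their direction cannot be read. The intervals of Pou2f3 and Avil lay wholly on the lower side in Srcap KO, and that of Ptgs1 on the higher side.

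**Figure D4:**
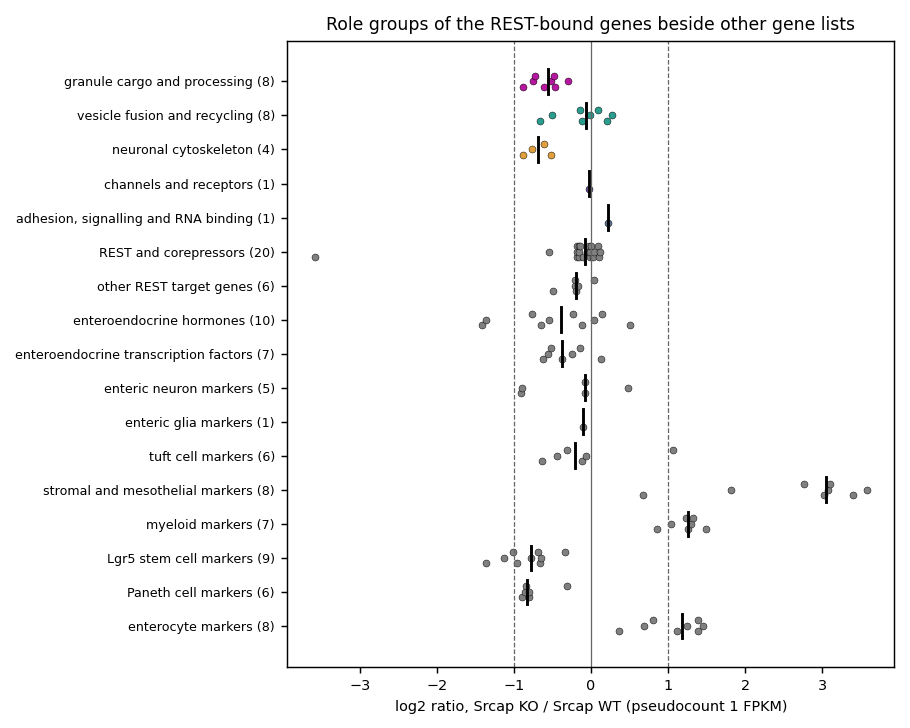
Log2 ratio of Srcap KO to Srcap WT (pseudocount 1 FPKM) for every gene with a mean of at least 1 FPKM (points; number in brackets), by role group of the REST-bound genes (coloured) and for other lists (grey); black bars are medians and dashed lines mark 2-fold. Granule and cytoskeleton genes have medians of -0.56 and -0.69, beside -0.39 for hormones and -0.38 for lineage factors. Lgr5 stem cell and Paneth cell markers have still lower medians, at -0.78 and -0.83. Medians of stromal, myeloid and enterocyte markers have the opposite sign.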

How the data were processed

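Per the file headers, each library has a table deposited by the authors that lists FPKM for 17840 genes to 2 decimals. The submitters' processing notes list HISAT, Bowtie2 and RSEM, without role or version, and mm10. Annotation, strand setting and any pooling are not given in the sources, so antisense and overlapping genes may share reads. Tables were joined on the gene ID. A gene counted as 2-fold different when the log2 ratio with a pseudocount of 1 FPKM reached 2-fold and 1 of its values was 1 FPKM or above, and medians used genes with a mean of at least 1 FPKM. No test between genotypes was possible with 1 library each. Members and lists were chosen with earlier results of these data known. Every member is described, as are Rest, Srcap and up to 4 genes per list with the largest absolute ratio at a mean of at least 1 FPKM. A few genes the rule names are not reported here. Chrnb2 and Sox10 were added after their values were seen, and the search of transcripts for RE1 was chosen after seeing the data.

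Depth was estimated from 82 genes in the Srcap KO and 84 genes in the Srcap WT library that are shorter than 900 nucleotides and have 1 GENCODE M21 transcript. Steps of 0.0585 and 0.059 FPKM kb per read left 74.4% and 73.8% of their values within 0.2 of a whole read. Read numbers per gene used median GENCODE transcript lengths and are approximate. All 40 members matched the RefSeq gene table, 29 have a RefSeq promoter window, and no member shared both values with another gene at 1 FPKM or more. Python 3.11.15, pandas 2.3.3, numpy 2.4.6 and scipy 1.17.1 were used. The rule and the motif search were tested on simulated data.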

Additional observations from a re-analysis of the deposited data

How the results depend on the processing

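No paired analysis was possible because each genotype has 1 library, and no library could be left out. The number of members at least 2-fold higher in Srcap KO was 0 under every alternative run. The number at least 2-fold lower, 0 with the pseudocount of 1 FPKM, was 4 with a pseudocount of 0.1 FPKM and 8 at 1.5-fold. Without a pseudocount, a setting added after seeing the data, it was 4 (Pcsk1n, Snap25, Stmn3 and Tubb4a), where 1.06% of all genes were called lower. Over all genes, 308 were higher. This number was 656 and 108 with pseudocounts of 0.1 and 5 FPKM, 194 with a larger value of at least 5 FPKM, 949 at 1.5-fold, 99 at 3-fold, 472 after rescaling to a sum of 1000000 and 711 without a pseudocount. The number lower, 49, was 110 and 23 with those pseudocounts, 187 at 1.5-fold, 16 at 3-fold and 125 without a pseudocount. The members' median of -0.50 was -0.61 and -0.27 with pseudocounts of 0.1 and 5 FPKM and -0.23 over all 40 members, and the 3 rescalings moved it by less than 0.1. Of 205 recomputed ratios of Rest and the members, 2 had another sign, those of Stx1a (0.06) and Kcnh2 (0.02) after rescaling to the sum. The share of promoter windows with an RE1-like match was 0.562% over all genes, 0.133% with at most 3 mismatches and 4.06% with 5. In transcripts it was 6.45% for all genes and 30.0% for members, against 6.90% of member windows. For members at a few reads, depth limits any reading of direction.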

Other observations

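The RE1-like match was also looked up for every gene of the tables, members included, in the promoter window or a transcript. Of 225 genes with at most 3 mismatches, 114 (50.7%) stayed under 1 FPKM in both libraries, against 33.9% of all 17840 genes. Over the 104 with a mean of at least 1 FPKM the median log2 ratio was -0.00, with 52 negative, against a median of 0.02 over all genes. With 1 FPKM added, 1 of the 225 was at least 2-fold higher in Srcap KO and 0 were at least 2-fold lower. The 114 under 1 FPKM could not be called. Among all genes at 1 FPKM or above the shares were 2.61% and 0.416%, so the 225 are not a like base. The 1 gene was Ms4a7, a gene of macrophages, at 5.54 FPKM in Srcap KO and 1.74 FPKM in Srcap WT. All 7 listed myeloid markers had the higher value in Srcap KO. Among them C1qa, C1qb and C1qc were at 85.3, 75.3 and 59.9 FPKM in Srcap KO and 33.5, 29.9 and 24.5 FPKM in Srcap WT. Whether the difference in Ms4a7 goes with myeloid cells or with Rest was not tested.

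Among the 16 genes with at most 2 mismatches and a mean of at least 1 FPKM, 8 were lower and 8 higher in Srcap KO. At the low end, beside Syp, stood Scgn, for the calcium sensor secretagogin of endocrine cells, at 4.30 and 5.47 FPKM. At the high end stood Slc5a11, a sugar and inositol transporter, at 1.66 and 0.79 FPKM (2.10-fold without the addition), and Tmem120a at 58.6 and 45.1 FPKM. Scamp5, a vesicle membrane protein known from neurons, was nearly equal at 25.7 and 26.3 FPKM. These genes were picked after the sequence search and their values were seen, and no test was made.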
